A study of Mus musculus with 3 samples.

Results

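Smooth muscle cells and myofibroblasts of the mouse lung were taken as the cell barcodes that held at least 3 unique molecular identifiers (UMIs, each standing for 1 captured RNA molecule) of Acta2 and at least 1 of Myh11, and none of Ptprc, Pecam1, Cdh5 or Epcam. Acta2 encodes smooth muscle alpha-actin and Myh11 the smooth muscle myosin heavy chain. The 4 other genes mark leukocytes (Ptprc), endothelium (Pecam1, Cdh5) and epithelium (Epcam). A barcode also needed at least 250 detected genes and at most 15% of its UMIs from mitochondrial genes. The cells were thus chosen by measured values, the UMIs of these 6 genes, which are given below as a description only. The rule found 436 of 28782 kept cells. Whole lung was profiled by droplet single-cell RNA sequencing in 3 libraries, 1 for each group of mice. The groups were irradiated conditional knockout mice that also received a drug (KO with drug), irradiated wild-type mice (irradiated WT) and non-irradiated wild-type mice (non-irradiated WT). The knocked-out gene, the driver of the knockout, the drug, the radiation dose, the time of collection, the ages and the number of mice in each library are not stated in the labels. The targeted gene could therefore not be checked, and knockout and drug cannot be told apart. With 1 library per group, animal, library and condition cannot be told apart either, so no test was made, and every interval below covers counting error only.

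The gated cells numbered 62 in KO with drug, 29 in irradiated WT and 345 in non-irradiated WT. The 29 cells of irradiated WT are fewer than 50, and every value from it rests on few cells: its largest cell held 14.4% of the gated UMIs, against 3.51% in KO with drug and 1.47% in non-irradiated WT. Levels are given in CPM, the UMIs of a gene summed over the gated cells of a library and scaled to a total of 1000000 UMIs. A ratio is the CPM of the group named first over that of the group named second, and log2 ratios were taken after 20 CPM was added to both.

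Smooth muscle encircles the airways and the pulmonary arteries and veins, and sets their calibre. It contracts when calcium activates myosin light chain kinase and myosin pulls on actin filaments. Its contractile genes are switched on together by serum response factor (SRF) with its partner myocardin, which bind a short DNA element, the CArG box. Myofibroblasts are fibroblast-like cells that carry part of the same apparatus. In the alveolus they lie at the entrance rings and lay down elastin.

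The proximal promoters of Actc1, Myl9, Myl6 and Vcl are shown, each of which holds a CArG box. The levels of these genes did not all differ alike between the libraries, as given below. Actc1 encodes an actin best known from the heart that mouse airway smooth muscle also expresses, Myl9 and Myl6 the regulatory and essential light chains of smooth muscle myosin, and Vcl vinculin, which ties actin to adhesions. Each sequence holds the 250 bases before a transcription start in RefSeq (GRCm38.p6), 5′ to 3′ on the gene's own strand, and capitals mark the CArG box. Each of these boxes also lies after the start of an annotated transcript, within that transcript. The distances below therefore hold only for the RefSeq start used, and the Actc1 window lies inside the span given for the gene below. The Actc1 window is chr2:114052876-114053125 on the minus strand, with the box at −47 to −38 from the start. The Myl9 window is chr2:156775214-156775463 on the plus strand, with the box at −161 to −152. The Myl6 window is chr10:128493010-128493259 on the minus strand, with the box at −50 to −41. The Vcl window is chr14:20929148-20929397 on the plus strand, with the box at −227 to −218.
Actc1: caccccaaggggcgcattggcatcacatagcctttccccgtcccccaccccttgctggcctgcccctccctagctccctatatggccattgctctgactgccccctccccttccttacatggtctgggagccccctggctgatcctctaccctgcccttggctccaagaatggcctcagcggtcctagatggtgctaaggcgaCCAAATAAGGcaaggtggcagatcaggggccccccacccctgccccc
Myl9: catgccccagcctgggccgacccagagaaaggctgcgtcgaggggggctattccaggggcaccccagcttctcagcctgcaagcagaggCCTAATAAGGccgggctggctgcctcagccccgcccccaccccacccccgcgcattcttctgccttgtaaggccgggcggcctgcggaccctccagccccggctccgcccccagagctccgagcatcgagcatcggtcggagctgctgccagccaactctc
Myl6: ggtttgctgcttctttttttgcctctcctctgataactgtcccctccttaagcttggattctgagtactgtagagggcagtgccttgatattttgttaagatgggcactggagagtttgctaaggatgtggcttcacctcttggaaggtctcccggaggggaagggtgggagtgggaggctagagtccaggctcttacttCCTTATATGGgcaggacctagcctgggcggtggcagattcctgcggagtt
Vcl: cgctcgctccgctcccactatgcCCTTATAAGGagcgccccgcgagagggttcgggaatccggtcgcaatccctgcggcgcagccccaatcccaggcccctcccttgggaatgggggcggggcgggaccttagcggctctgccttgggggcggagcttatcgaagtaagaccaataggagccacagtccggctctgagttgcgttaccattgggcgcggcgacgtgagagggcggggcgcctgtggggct
The CArG box, searched as the palindromic element on both strands, lay in this window of 3 of the 26 listed promoters of contractile genes (11.5%; Myl9, Myl6 and Vcl), against 482 of 32851 promoters over all genes (1.47%). These promoters stand for 22 of the 25 contractile genes listed. Shares varied between gene lists, from 0% in many to 21.7% of 23 early response and dissociation promoters and 25% of 4 airway smooth muscle marker promoters. A match describes the letters of the window and says nothing about binding, and a promoter without a match may hold the element elsewhere.

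The smooth muscle part of the gate's name held up against Tagln, Cnn1 and Des, markers that the rule did not use. Tagln (transgelin, an actin-binding protein of smooth muscle; ENSMUSG00000032085, chr9:45929619-45936058, minus strand) stood at 12202 CPM in KO with drug, 7129 CPM in irradiated WT and 11465 CPM in non-irradiated WT. In the other kept cells it stood at 68.1 CPM in KO with drug, 34.6 CPM in irradiated WT and 371 CPM in non-irradiated WT. Cnn1 (calponin, which restrains actomyosin) and Des (desmin, the muscle intermediate filament) were detected in 52 and 57 of the 62 gated cells of KO with drug. Cnn1 and Des were detected in 23 and 27 of the 29 gated cells of irradiated WT, and in 282 and 314 of the 345 gated cells of non-irradiated WT. Of 9 listed heart markers, which include Actc1, 4 were detected in KO with drug, 4 in irradiated WT and 5 in non-irradiated WT. They summed to 3185 CPM in KO with drug, 972 CPM in irradiated WT and 2624 CPM in non-irradiated WT. Myh6, Tnni3, Nppa and Sln among them had 0 UMIs in all 3 libraries. The 6 listed mesothelial markers summed to 2.03 CPM in KO with drug, 3.49 CPM in irradiated WT and 20.5 CPM in non-irradiated WT. Msln, Upk3b, Wt1 and Lrrn4 among them had 0 UMIs throughout. Of 15 listed fibroblast markers, 13 were detected in KO with drug, 12 in irradiated WT and 15 in non-irradiated WT. They summed to 4022 CPM in KO with drug, 3823 CPM in irradiated WT and 4536 CPM in non-irradiated WT. In the other kept cells they summed to 2504 CPM in KO with drug, 1961 CPM in irradiated WT and 6919 CPM in non-irradiated WT. The pericyte markers summed in the gate to 2777 CPM in KO with drug, 3205 CPM in irradiated WT and 3035 CPM in non-irradiated WT. The 11 listed alveolar myofibroblast markers summed in the gate to 829 CPM in KO with drug, 954 CPM in irradiated WT and 866 CPM in non-irradiated WT. In the fibroblast-gated cells described below they summed to 1436, 1139 and 1167 CPM in the same order. This list therefore did not set the gate apart from fibroblasts. Such sums do not tell which cells carried the markers, and gated cells with fibroblast, pericyte or Hhip markers are counted below.

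The gated cells held a median of 7500.5 UMIs in KO with drug, 8483 in irradiated WT and 6594 in non-irradiated WT. By Xist and Y-linked transcripts, 57 gated cells were of female type and 0 of male type in KO with drug, 21 and 6 in irradiated WT, and 311 and 0 in non-irradiated WT. Irradiated WT as a whole held 3005 female-type and 1595 male-type cells, so it held cells of both types, of which the labels say nothing, and contractile values from female-type cells are given below. Barcodes, kept or not, that were seen again in another library numbered 71 in KO with drug, 53 in irradiated WT and 74 in non-irradiated WT. Gated cells among them numbered 0 in KO with drug, 0 in irradiated WT and 4 in non-irradiated WT. No gated cell shared its barcode with a gated cell of another library. Transcripts of other cell types, which can enter droplets as free RNA, differed between the libraries. Sftpc, Sftpa1, Scgb1a1, Lyz2, Cd74, Igkc, Hbb-bs and Hba-a1, genes of epithelium, leukocytes and red cells, summed to 674 CPM in the gated cells of KO with drug, 262 CPM in those of irradiated WT and 4311 CPM in those of non-irradiated WT. The part of free RNA in the low levels below was not tested. Tagln in the other kept cells reached at most 371 CPM, against at least 7129 CPM in the gate.

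Gated cells were a smaller part of both irradiated libraries. They made up 0.627% of kept cells in KO with drug (62 of 9886, 95% Clopper-Pearson interval 0.481 to 0.803), 0.4996% in irradiated WT (29 of 5805, 0.335 to 0.717) and 2.64% in non-irradiated WT (345 of 13091, 2.37 to 2.92). The share in KO with drug was 0.238 times that of non-irradiated WT (interval 0.179 to 0.313). The share in irradiated WT was 0.190 times that of non-irradiated WT (0.125 to 0.277). Between KO with drug and irradiated WT the ratio was 1.26, with an interval of 0.796 to 2.02 that includes 1.

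Measured only among cells free of leukocyte, endothelial and epithelial marker UMIs, the gap was smaller. The share there was 2.88% in KO with drug (62 of 2154, 2.21 to 3.67), 2.89% in irradiated WT (29 of 1004, 1.94 to 4.12) and 7.49% in non-irradiated WT (345 of 4608, 6.74 to 8.28). On this footing the shares of the 2 irradiated libraries were 0.384 times (0.288 to 0.505, KO with drug) and 0.386 times (0.255 to 0.564, irradiated WT) that of non-irradiated WT. The labels do not say how the lungs were dissociated, and the part of cell recovery in these shares was not tested.

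**Figure D1:**
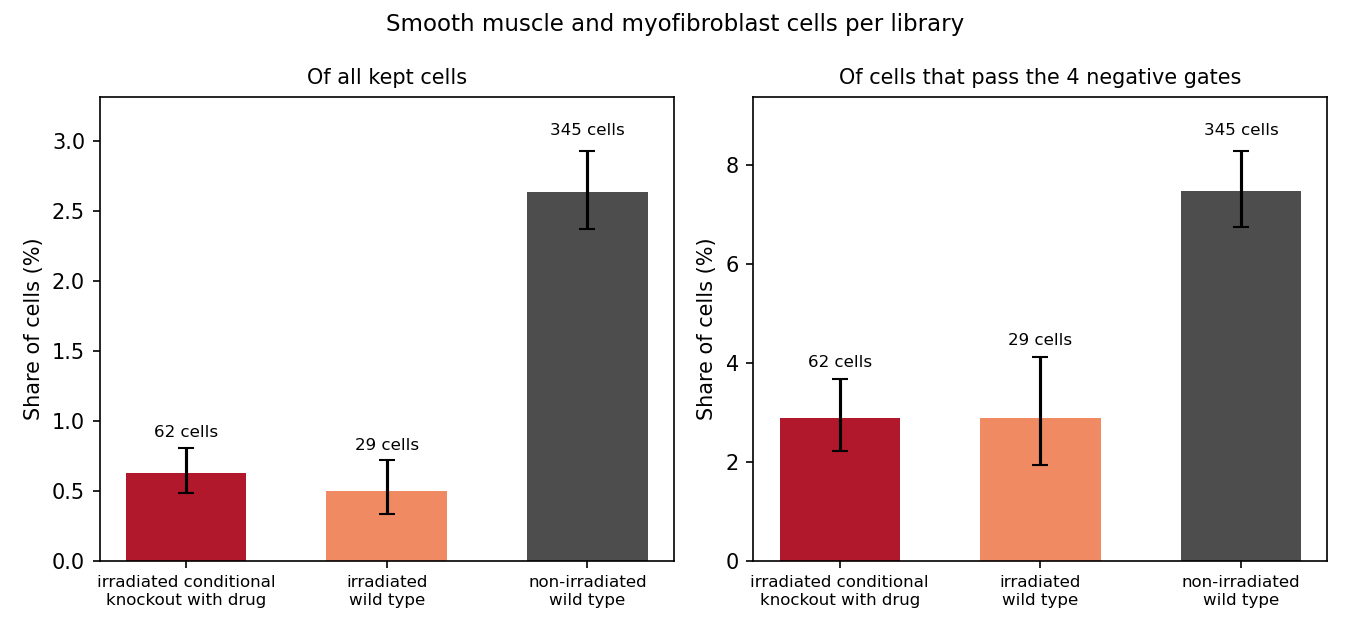
Share of smooth muscle and myofibroblast cells in each library, as a percentage of all kept cells (left) and of cells with no leukocyte, endothelial or epithelial marker UMI (right). Bars are the shares, lines are 95% Clopper-Pearson intervals, and the number of gated cells stands above each bar. Both irradiated libraries lie below non-irradiated WT in both panels, and the gap is narrower on the right.

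The Acta2 minimum cut through few cells and the Myh11 minimum through many. Acta2 stood at 3 to 5 UMIs in 2 gated cells of KO with drug, 2 of irradiated WT and 21 of non-irradiated WT. Myh11 stood at 1 UMI in 3 gated cells in KO with drug, 1 gated cell in irradiated WT and 26 gated cells in non-irradiated WT. Just outside, cells that met every other condition with 2 UMIs of Acta2 numbered 1 in KO with drug, 0 in irradiated WT and 9 in non-irradiated WT. Cells with enough Acta2 but no Myh11 numbered 55 in KO with drug, 25 in irradiated WT and 287 in non-irradiated WT, nearly as many as the gated cells. With no Myh11 minimum the share of kept cells would be 1.18% in KO with drug, 0.930% in irradiated WT and 4.83% in non-irradiated WT. These cells carried little Cnn1, at 3.43 CPM in KO with drug, 2.40 CPM in irradiated WT and 5.89 CPM in non-irradiated WT. Their Col1a2, a chain of collagen I, stood at 3629 CPM in KO with drug, 3673 CPM in irradiated WT and 2046 CPM in non-irradiated WT. Some cells of a kind that should fail the gate met its Acta2 and Myh11 minimums, most often in non-irradiated WT. Among lymphocytes, 5 of 3793 in KO with drug and 2 of 2266 in irradiated WT did so. In non-irradiated WT 15 of 2019 lymphocytes did so. Acta2 in lymphocytes stood at 19.9 CPM in KO with drug, 11.1 CPM in irradiated WT and 141 CPM in non-irradiated WT. Stray transcripts of the gate genes were thus commonest in the library with the largest gated share. Their part in the gated shares was not tested. Before the 4 negative gates, 91 cells of KO with drug, 35 of irradiated WT and 559 of non-irradiated WT met the 2 positive gates.

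Smooth muscle cells of irradiated WT carried lower levels of contractile transcripts than those of both other libraries. Of 23 contractile genes that the rule did not use, 12 were lower by 1.5-fold or more and 0 higher in irradiated WT than in non-irradiated WT. All 23 lay below it, where 52.0% of all genes did so, with a median log2 ratio of −0.61. Over all 9402 genes measured in that comparison, 6.96% were at least 1.5-fold lower and 5.04% higher, and the median log2 ratio was −0.01. In KO with drug, 11 of the 23 genes were higher by 1.5-fold or more and 0 lower than in irradiated WT. All 23 lay above it, where 55.7% of all genes lay above and 44.3% below. The median log2 ratio was 0.57, and over all 5515 genes measured 9.36% were higher and 5.95% lower, with a median of 0.05. The same 29 cells enter both comparisons, so the opposite signs are not separate observations. Between KO with drug and non-irradiated WT, 0 of the 23 genes passed 1.5-fold either way, 16 lay above and 7 below, and 53.1% and 46.9% of all genes did so. The median log2 ratio there was 0.06, and over all 9559 genes 2.07% were higher and 3.05% lower.

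Cnn1 (ENSMUSG00000001349, chr9:22099216-22109630, plus strand) showed the widest gap among the defining markers. It stood at 1597 CPM in KO with drug (95% Poisson interval 1487 to 1712), 486 CPM in irradiated WT (408 to 574) and 1283 CPM in non-irradiated WT (1240 to 1328). Cnn1 was 3.29 times as high in KO with drug as in irradiated WT (2.74 to 3.97), which in turn stood at 0.379 times non-irradiated WT (0.317 to 0.449). Its median per cell was 1276 CPM in KO with drug, 546 CPM in irradiated WT and 1241 CPM in non-irradiated WT, so the medians per cell showed the same low library. Tagln was 1.71 times as high in KO with drug as in irradiated WT (1.63 to 1.80). In irradiated WT it was 0.622 times the non-irradiated level (0.594 to 0.650). Des stood at 1542 CPM in KO with drug, 1087 CPM in irradiated WT and 1669 CPM in non-irradiated WT, a narrower gap with the same order of low and high libraries. The 2 genes of the rule are given as a description. Acta2 stood at 17465 CPM in KO with drug, 7818 CPM in irradiated WT and 14973 CPM in non-irradiated WT. Myh11 was at 4199 CPM in KO with drug, 3023 CPM in irradiated WT and 4671 CPM in non-irradiated WT.

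The actins and their partners followed the same pattern. Actg2, the gamma-actin of visceral and airway smooth muscle, stood at 1580 CPM in KO with drug, 549 CPM in irradiated WT and 1201 CPM in non-irradiated WT. Actc1 (ENSMUSG00000068614, chr2:114047282-114053548) stood at 3088 CPM in KO with drug (2934 to 3247), 856 CPM in irradiated WT (752 to 970) and 2532 CPM in non-irradiated WT (2470 to 2594). Actc1 was thus 3.61 times as high in KO with drug as in irradiated WT (3.15 to 4.14). With Cdh4, Pcp4l1 and other airway smooth muscle markers these genes summed to 5312 CPM in KO with drug, 2041 CPM in irradiated WT and 4351 CPM in non-irradiated WT, a sum that Actc1 and Actg2 dominate. Only these 2 of 6 measured were higher by 1.5-fold or more in KO with drug than in irradiated WT, and 0 lower (9.36% and 5.95% of all genes). In irradiated against non-irradiated WT the same 2 of 7 were lower, and 1 (Hhip) was higher (6.96% and 5.04% of all genes). Csrp1, a LIM protein of the contractile cytoskeleton, stood at 1920 CPM in KO with drug, 1069 CPM in irradiated WT and 1918 CPM in non-irradiated WT. The cytoskeletal partners behaved alike. Smtn (smoothelin), Synpo2 (synaptopodin 2), Itga8 (integrin alpha 8) and Ppp1r14a (the inhibitor of myosin phosphatase) were also lowest in irradiated WT. Smtn was at 546 CPM in KO with drug, 269 CPM in irradiated WT and 462 CPM in non-irradiated WT. Itga8 was at 1150 CPM in KO with drug, 570 CPM in irradiated WT and 946 CPM in non-irradiated WT. Synpo2 and Ppp1r14a kept this order, at 743 and 1227 CPM in KO with drug, 409 and 650 CPM in irradiated WT, and 668 and 1191 CPM in non-irradiated WT.

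The light chains whose promoters are printed above differed less. Myl9 stood at 4203 CPM in KO with drug, 2607 CPM in irradiated WT and 4078 CPM in non-irradiated WT. Myl6, which is expressed in most cells, stood at 7918 CPM in KO with drug, 5336 CPM in irradiated WT and 7160 CPM in non-irradiated WT. Vcl departed from the pattern: it stood at 603 CPM in KO with drug (537 to 676), 377 CPM in irradiated WT (310 to 456) and 399 CPM in non-irradiated WT (375 to 424), so that the 2 wild-type libraries lay within counting error of each other. Other contractile genes differed little. Cald1 (caldesmon) was at 2773 CPM in KO with drug, 2652 CPM in irradiated WT and 2678 CPM in non-irradiated WT. Mylk, the myosin light chain kinase that starts contraction, was at 1398 CPM in KO with drug, 1328 CPM in irradiated WT and 1529 CPM in non-irradiated WT. Lmod1 (leiomodin, an actin nucleator) was at 731 CPM in KO with drug, 681 CPM in irradiated WT and 896 CPM in non-irradiated WT. For Cald1, Mylk and Lmod1 the 3 libraries lay within 1.5-fold of each other.

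**Figure D2:**
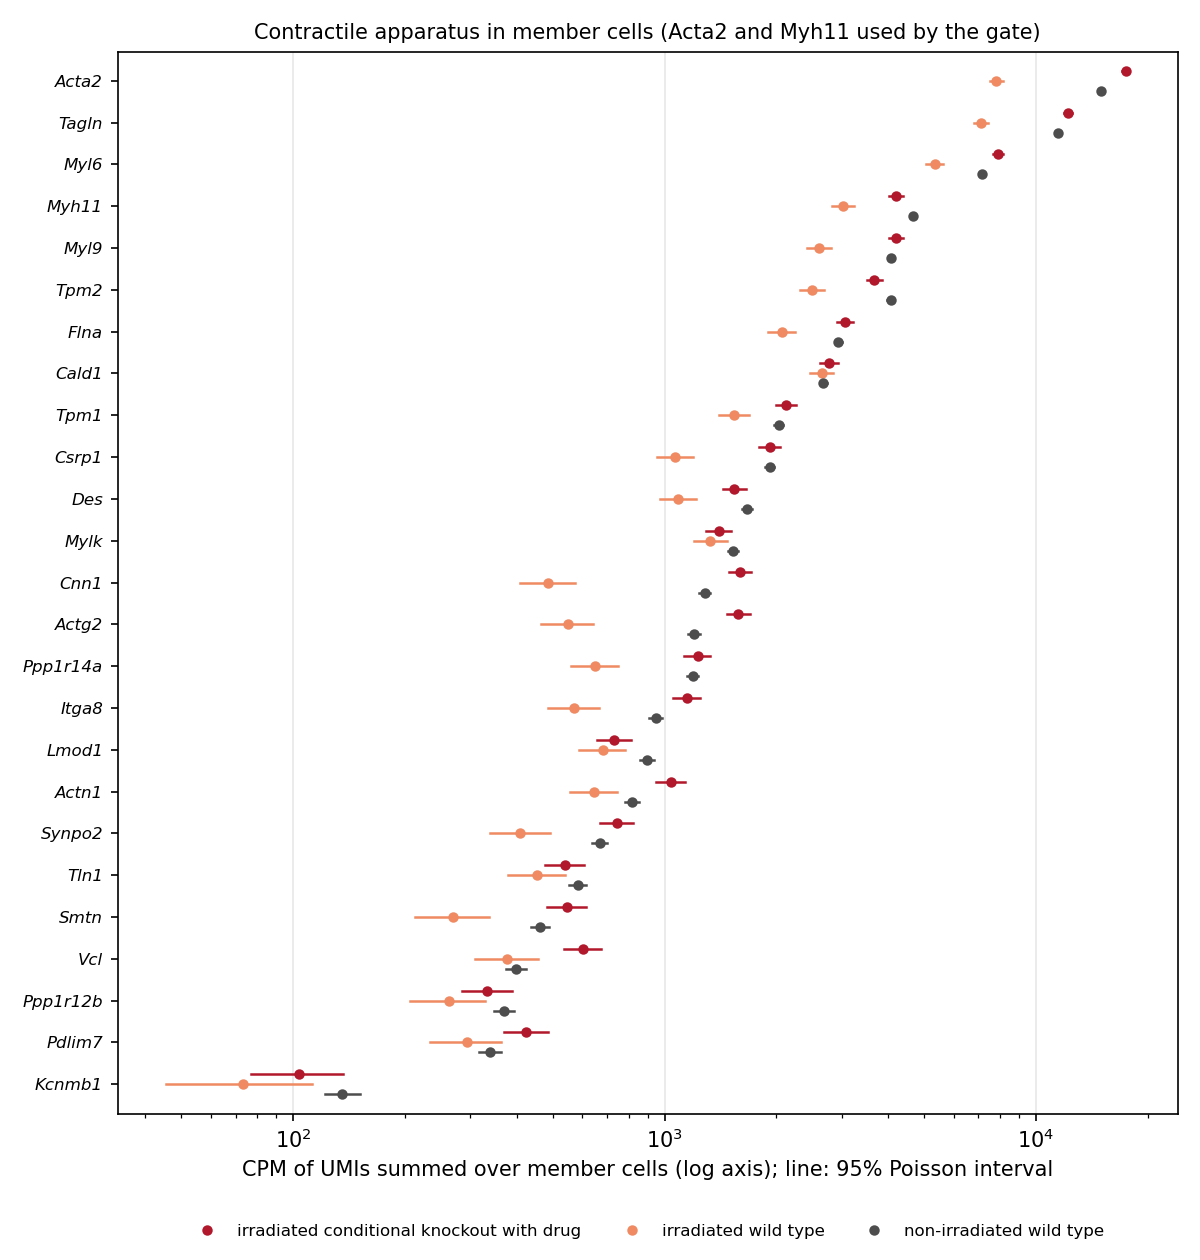
Levels of the contractile genes in smooth muscle and myofibroblast cells of the 3 libraries, as CPM of summed UMIs on a log axis. Points are the levels and lines 95% Poisson intervals. The points of irradiated WT lie lowest for Tagln, Cnn1, Actg2 and most other genes, and the 3 libraries nearly coincide for Cald1 and Mylk. Acta2 and Myh11 were used to choose the cells.

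The size of the contractile gap depended on how the few cells of irradiated WT were weighted. Averaging CPM over cells, so that a large cell counts no more than a small one, gave a median log2 ratio of 0.27 with 7 of 23 genes higher for KO with drug against irradiated wild type. The same averaging gave −0.40 with 7 of 23 genes lower for irradiated wild type against non-irradiated wild type. Without the largest cell of each library the medians were 0.41 and −0.41. With female-type cells only they were 0.65 and −0.58. The sign of the medians held under each of these settings, while the number of genes past 1.5-fold changed.

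**Figure D3:**
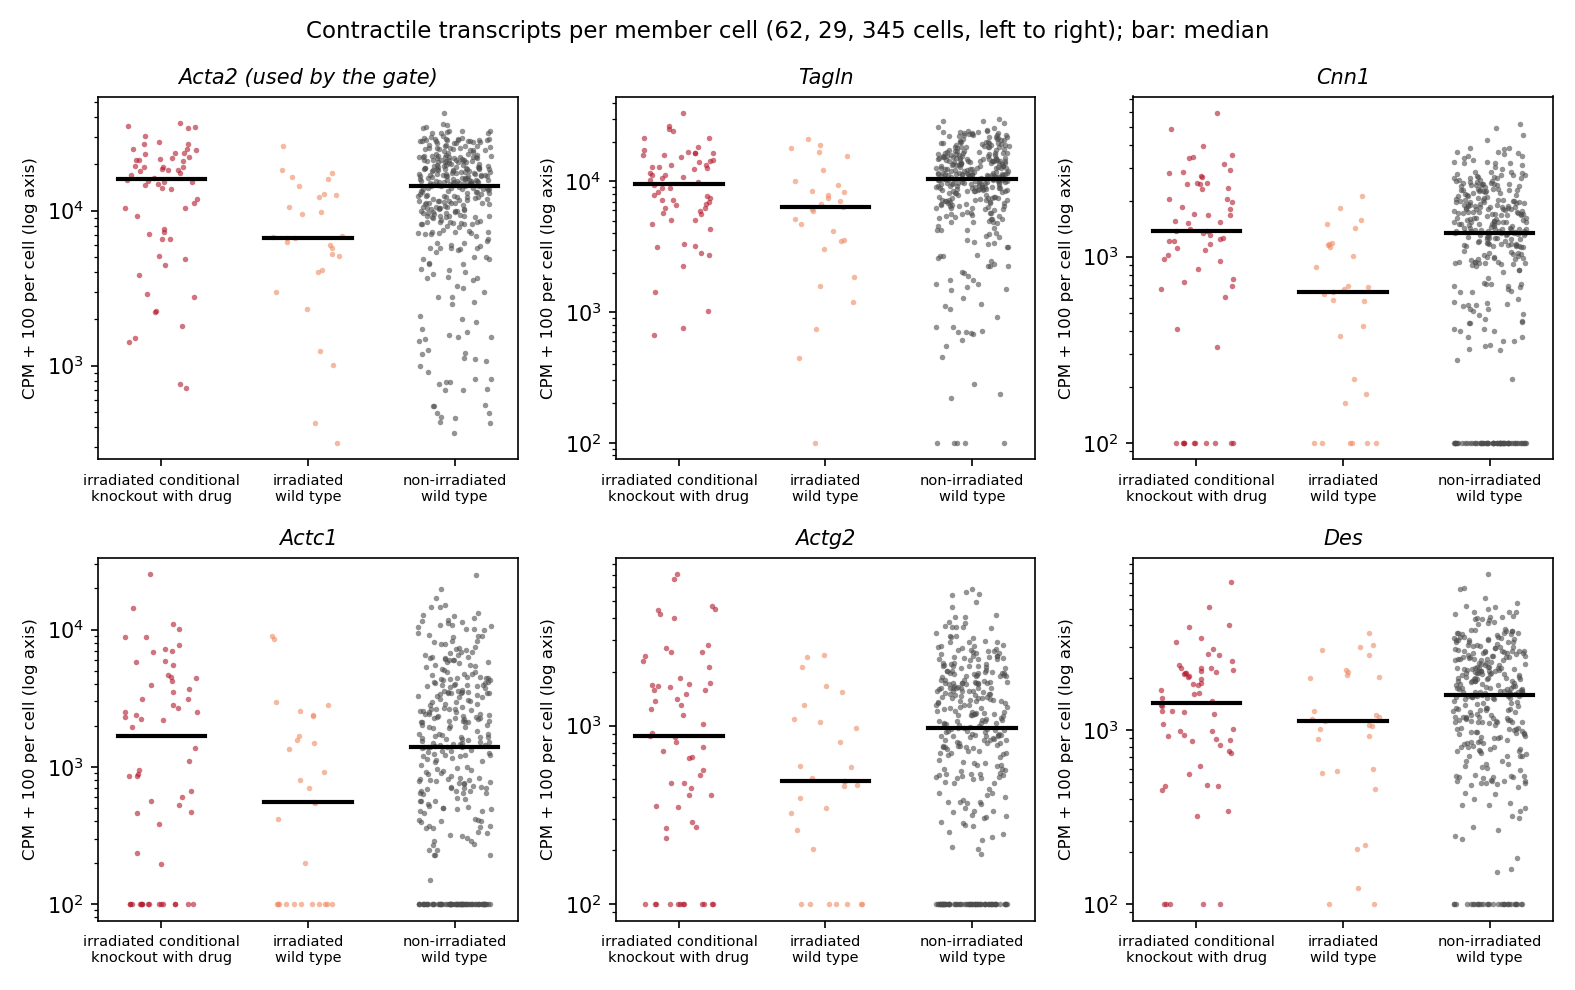
Contractile transcripts in each smooth muscle and myofibroblast cell, as CPM per cell plus 100 on a log axis, with 1 point per cell and a bar at the median. The medians of Tagln, Cnn1, Actc1 and Actg2 are lowest in irradiated WT, while single cells of the 3 libraries overlap over most of the range. Acta2 was used to choose the cells.

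In neighbouring stromal cells the contractile list gave a smaller contrast for irradiated WT, or rests on fewer cells, while Tagln in fibroblasts did not. In fibroblast-gated cells, which held Col1a2 and Dcn transcripts and lay outside the gate (248 cells in KO with drug, 135 in irradiated WT and 1024 in non-irradiated WT), the median log2 ratio of measured contractile genes was 0.14 for KO with drug against irradiated wild type. It was −0.15 for irradiated wild type against non-irradiated wild type. The defining markers that the rule did not use gave medians there of 0.85 (2 of 2 measured higher by 1.5-fold or more) and −0.64 (2 of 3 lower), against 0.77 and −0.68 in the smooth muscle gate. Tagln in fibroblast-gated cells stood at 170 CPM in KO with drug, 74.0 CPM in irradiated WT and 250 CPM in non-irradiated WT. In pericyte-gated cells (24 in KO with drug, 9 in irradiated WT and 153 in non-irradiated WT) the contractile medians were 0.23 and −0.62. The defining markers gave 1.22 and −1.94 there, on 2 measured genes, and 9 cells allow no firm value. Contractile genes stand at low levels in both neighbours: Actc1 was at 0 CPM in the pericyte-gated cells of both irradiated libraries and 3.88 CPM in those of non-irradiated WT.

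Few transcription factors of the smooth muscle program passed 1.5-fold. Srf itself was at 126 CPM in KO with drug (96.6 to 161), 59.4 CPM in irradiated WT (34.6 to 95.1) and 98.7 CPM in non-irradiated WT (86.8 to 112). Its order was that of the contractile genes, on 17 UMIs in irradiated WT. Myocd, which encodes myocardin, was at 181 CPM in KO with drug, 161 CPM in irradiated WT and 168 CPM in non-irradiated WT, with no separation. Tbx2 ran against the contractile genes and Fhl1 with them. Tbx2, a T-box factor of lung mesenchyme, was at 97.5 CPM in KO with drug, 262 CPM in irradiated WT and 125 CPM in non-irradiated WT. Fhl1, a LIM protein of muscle, was at 1091 CPM in KO with drug, 521 CPM in irradiated WT and 1151 CPM in non-irradiated WT. Of the 18 listed factors measured between the 2 irradiated libraries, 3 were higher by 1.5-fold or more and 1 lower in KO with drug (9.36% and 5.95% of all genes). Of the 19 measured between irradiated and non-irradiated wild type, 1 was higher and 2 lower in the irradiated cells (5.04% and 6.96% of all genes).

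The genes with the widest gap between the 2 irradiated libraries included several that were low in the irradiated wild-type cells alone. Abra, an activator of the SRF pathway, stood at 104 CPM in KO with drug, 14 CPM in irradiated WT and 52.5 CPM in non-irradiated WT, on 4 UMIs in irradiated WT. Lmcd1, a LIM protein of the contractile cytoskeleton, stood at 297 CPM in KO with drug, 73.4 CPM in irradiated WT and 164 CPM in non-irradiated WT. Of 19 listed basement membrane and integrin genes, 3 were higher by 1.5-fold or more and 1 lower in KO with drug than in irradiated WT (9.36% and 5.95% of all genes). The integrin subunits Itga5 and Itga9, which bind fibronectin and tenascin, stood at 339 and 268 CPM in KO with drug, 108 and 90.9 CPM in irradiated WT, and 255 and 196 CPM in non-irradiated WT. Nr4a3, an early-response nuclear receptor, stood at 199 CPM in KO with drug, 45.4 CPM in irradiated WT and 175 CPM in non-irradiated WT. The named genes that were lower in KO with drug than in irradiated WT were mostly highest in irradiated WT, on few UMIs. Neat1, a nuclear long non-coding RNA, stood at 132 CPM in KO with drug, 377 CPM in irradiated WT and 185 CPM in non-irradiated WT. Igfbp4, which binds insulin-like growth factors, stood at 120 CPM in KO with drug, 318 CPM in irradiated WT and 201 CPM in non-irradiated WT. Mmp2, a gelatinase, stood at 20.3 CPM (10 UMIs) in KO with drug, 112 CPM (32 UMIs) in irradiated WT and 66.7 CPM (169 UMIs) in non-irradiated WT. Of these 3, Neat1 alone stayed past 2-fold under every alternative tried. Ccl19, a chemokine for lymphocytes and dendritic cells, stood at 24.4 CPM in KO with drug, 101 CPM in irradiated WT and 25.7 CPM in non-irradiated WT. Cox6b2, Cep83, Atp6v1c1 and Tbc1d9b had log2 ratios of −1.42, −1.39, −1.34 and −1.31 for KO with drug against irradiated wild type, on 19 to 25 UMIs in irradiated WT. At the 2-fold limit used for single genes, 104 of 5515 genes (1.89%) were higher and 59 (1.07%) lower in KO with drug than in irradiated WT.

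Single vessel and signalling genes differed between the libraries. Mylk4, a kinase of the myosin light chain kinase family that these cells carried and pericyte-gated cells did not, stood at 199 CPM in KO with drug (162 to 243), 34.9 CPM in irradiated WT (16.8 to 64.3) and 63.5 CPM in non-irradiated WT (54.1 to 74.1). It was 3.13 times as high in KO with drug as in non-irradiated WT (2.41 to 4.05). Pln, which encodes phospholamban, the brake on the calcium pump of the sarcoplasmic reticulum, stood at 63 CPM in KO with drug, 69.9 CPM in irradiated WT and 8.29 CPM in non-irradiated WT. Pln was thus higher in both irradiated libraries, on 31 UMIs in KO with drug and 20 in irradiated WT, against 21 in the far larger gate of non-irradiated WT. Its UMIs lay in 11 cells of KO with drug, 5 of irradiated WT and 13 of non-irradiated WT, and 1 cell held 40% of those of irradiated WT.

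Among the vasoactive and calcium genes, a channel of calcium entry and one of calcium release were lowest in irradiated WT, while the list was divided. Cacna1c, the pore of the L-type calcium channel, stood at 110 CPM in KO with drug, 62.9 CPM in irradiated WT and 151 CPM in non-irradiated WT. Itpr1, the inositol trisphosphate receptor that releases stored calcium, stood at 163 CPM in KO with drug, 73.4 CPM in irradiated WT and 139 CPM in non-irradiated WT. Rgs2, which damps signalling by vasoconstrictor receptors, went the other way, at 201 CPM in KO with drug, 367 CPM in irradiated WT and 189 CPM in non-irradiated WT. In the whole list, 4 of 21 were higher by 1.5-fold or more and 2 lower in KO with drug than in irradiated WT (9.36% and 5.95% of all genes). In irradiated WT 3 of 26 were higher and 3 lower than in non-irradiated WT (5.04% and 6.96% of all genes), with a median log2 ratio of 0.10. Rgs5, a marker of mural cells, is not compared, since 1 cell held 54% of its UMIs in KO with drug.

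Of the genes named by the size of their ratio, which leaves out those held mostly by 1 cell, the inducible heat shock genes showed the widest gap between irradiated WT and both other libraries. Hspa1a (ENSMUSG00000091971, chr17:34969190-34972156, minus strand), an inducible Hsp70 chaperone, stood at 1680 CPM in KO with drug (1567 to 1798), 220 CPM in irradiated WT (169 to 282) and 1506 CPM in non-irradiated WT (1458 to 1554). It was 7.63 times as high in KO with drug as in irradiated WT (5.90 to 10.02). Per cell, the medians were 573 CPM in KO with drug, 118 CPM in irradiated WT and 535 CPM in non-irradiated WT. Hspa1b, a near-identical copy whose reads cannot be told apart with certainty, stood at 1556 CPM in KO with drug, 234 CPM in irradiated WT and 1386 CPM in non-irradiated WT. The chaperones that work with Hsp70 were also lowest in irradiated WT. Hsph1, a partner chaperone of Hsp70, stood at 179 CPM in KO with drug, 34.9 CPM in irradiated WT and 180 CPM in non-irradiated WT. Hsp90aa1, the inducible Hsp90, stood at 1162 CPM in KO with drug, 650 CPM in irradiated WT and 1235 CPM in non-irradiated WT.

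For Hspa1a this gap was not seen in fibroblast-gated cells, while the 9 pericyte-gated cells of irradiated WT allow no firm value. Hspa1a in fibroblast-gated cells stood at 994 CPM in KO with drug, 796 CPM in irradiated WT and 700 CPM in non-irradiated WT. In pericyte-gated cells it stood at 520 CPM in KO with drug, 535 CPM in irradiated WT and 616 CPM in non-irradiated WT. Immediate early genes, which cells also switch on during tissue dissociation, were divided. Egr1 stood at 382 CPM in KO with drug, 937 CPM in irradiated WT and 751 CPM in non-irradiated WT. Zfp36, which degrades cytokine mRNA, was at 134 CPM in KO with drug, 322 CPM in irradiated WT and 276 CPM in non-irradiated WT. Junb stood at 488 CPM in KO with drug, 797 CPM in irradiated WT and 742 CPM in non-irradiated WT, so these genes were lowest in KO with drug. Other early genes were lowest in irradiated WT, as the chaperones were. Nr4a1, an early-response nuclear receptor, stood at 268 CPM in KO with drug, 206 CPM in irradiated WT and 324 CPM in non-irradiated WT. Atf3, a stress-induced transcription factor, was at 388 CPM in KO with drug, 280 CPM in irradiated WT and 462 CPM in non-irradiated WT. Of 21 genes of early response and dissociation, 4 were higher by 1.5-fold or more and 5 lower in KO with drug than in irradiated WT (9.36% and 5.95% of all genes), with Hspa1a, Hspa1b, Dnajb1 and Hsp90aa1 higher and Egr1, Junb, Zfp36, Ier2 and Socs3 lower. In irradiated WT 0 were higher and 6 lower than in non-irradiated WT (5.04% and 6.96% of all genes), the 6 being the same 4 chaperone genes with Atf3 and Nr4a1. The part of handling of the tissue in these levels was not tested.

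Targets of p53 had their highest summed level in irradiated WT, at 1830 CPM in KO with drug, 2715 CPM in irradiated WT and 1474 CPM in non-irradiated WT. Of 21 measured targets, 9 were higher by 1.5-fold or more and 1 lower in irradiated than in non-irradiated WT (5.04% and 6.96% of all genes), with a median log2 ratio of 0.50. Cdkn1a, which encodes the cell cycle inhibitor p21, stood at 242 CPM in KO with drug (200 to 289), 384 CPM in irradiated WT (316 to 463) and 101 CPM in non-irradiated WT (88.7 to 114). The ratio of irradiated to non-irradiated wild type was 3.82 (3.03 to 4.79). Phlda3, an inhibitor of Akt signalling, stood at 138 CPM in KO with drug, 311 CPM in irradiated WT and 71.8 CPM in non-irradiated WT. For both genes KO with drug lay between the wild-type libraries, and the next 2 targets kept that order. Ccng1 (cyclin G1) stood at 87.3 CPM in KO with drug, 154 CPM in irradiated WT and 54.1 CPM in non-irradiated WT. Bax, which opens the mitochondrial outer membrane in cell death, was at 104 CPM in KO with drug, 157 CPM in irradiated WT and 68.3 CPM in non-irradiated WT.

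In KO with drug the median of the p53 targets lay between the wild-type libraries, though not every target did. Against irradiated wild type, 0 of 16 measured targets were higher by 1.5-fold or more and 5 lower (9.36% and 5.95% of all genes), with a median log2 ratio of −0.45, and 2 of the 16 lay above it. Against non-irradiated wild type, 2 of 22 were higher and 1 lower (2.07% and 3.05% of all genes), with a median of 0.18, and 7 of the 22 lay below it. Cdkn1a was 2.40 times as high as in non-irradiated WT (1.92 to 3.00). Fibroblast-gated cells gave the same order for Cdkn1a, at 299 CPM in KO with drug, 514 CPM in irradiated WT and 171 CPM in non-irradiated WT. Cell cycle genes were hardly measured, with 1 of 15 proliferation genes reaching 20 UMIs between the 2 irradiated libraries.

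Type I interferon-stimulated genes also had their highest summed level in irradiated WT, at 1753 CPM in KO with drug, 3002 CPM in irradiated WT and 1687 CPM in non-irradiated WT. Of 15 measured genes, 8 were higher by 1.5-fold or more and 0 lower in irradiated than in non-irradiated WT (5.04% and 6.96% of all genes), and all 15 lay above it, where 48.0% of all genes did so, with a median log2 ratio of 0.59. Ifitm3, which blocks the entry of viruses, stood at 1054 CPM in KO with drug, 1922 CPM in irradiated WT and 1114 CPM in non-irradiated WT. Its medians per cell were 709 CPM in KO with drug, 1575 CPM in irradiated WT and 728 CPM in non-irradiated WT. KO with drug and non-irradiated WT thus lay close together for Ifitm3, and so they did for the next 2 genes. Isg15, a ubiquitin-like modifier, stood at 36.6 CPM in KO with drug, 112 CPM in irradiated WT and 31.6 CPM in non-irradiated WT. Bst2 (tetherin) was at 79.2 CPM in KO with drug, 192 CPM in irradiated WT and 80.9 CPM in non-irradiated WT. Against irradiated wild type, 0 of 11 measured genes were higher and 3 lower in KO with drug (9.36% and 5.95% of all genes), with a median log2 ratio of −0.37, and 3 of the 11 lay above it. Between KO with drug and non-irradiated WT, 2 of the 15 were higher and 0 lower (2.07% and 3.05% of all genes).

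Of 17 genes induced by interferon gamma or presenting peptides on MHC class I, 11 were higher by 1.5-fold or more and 1 lower in irradiated than in non-irradiated WT (5.04% and 6.96% of all genes), with a median log2 ratio of 0.82. Against irradiated wild type, 0 of 11 were higher and 7 lower in KO with drug (9.36% and 5.95% of all genes). H2-K1, a class I heavy chain, stood at 301 CPM in KO with drug, 685 CPM in irradiated WT and 262 CPM in non-irradiated WT. Its medians per cell were 248 CPM in KO with drug, 395 CPM in irradiated WT and 188 CPM in non-irradiated WT. B2m, the light chain of class I, stood at 638 CPM in KO with drug, 1227 CPM in irradiated WT and 512 CPM in non-irradiated WT. In irradiated WT 1 cell held 36% of the B2m UMIs, and the medians per cell were 501 CPM in KO with drug, 451 CPM in irradiated WT and 418 CPM in non-irradiated WT. By the median per cell, B2m was therefore not higher in irradiated WT than in KO with drug. H2-D1, another class I heavy chain, had the same pattern and stood at 406 CPM in KO with drug, 601 CPM in irradiated WT and 317 CPM in non-irradiated WT. Its medians per cell were 330 CPM in KO with drug, 315 CPM in irradiated WT and 241 CPM in non-irradiated WT. In fibroblast-gated cells H2-K1 stood at 740 CPM in KO with drug, 595 CPM in irradiated WT and 475 CPM in non-irradiated WT, so there irradiated WT was not the highest.

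**Figure D4:**
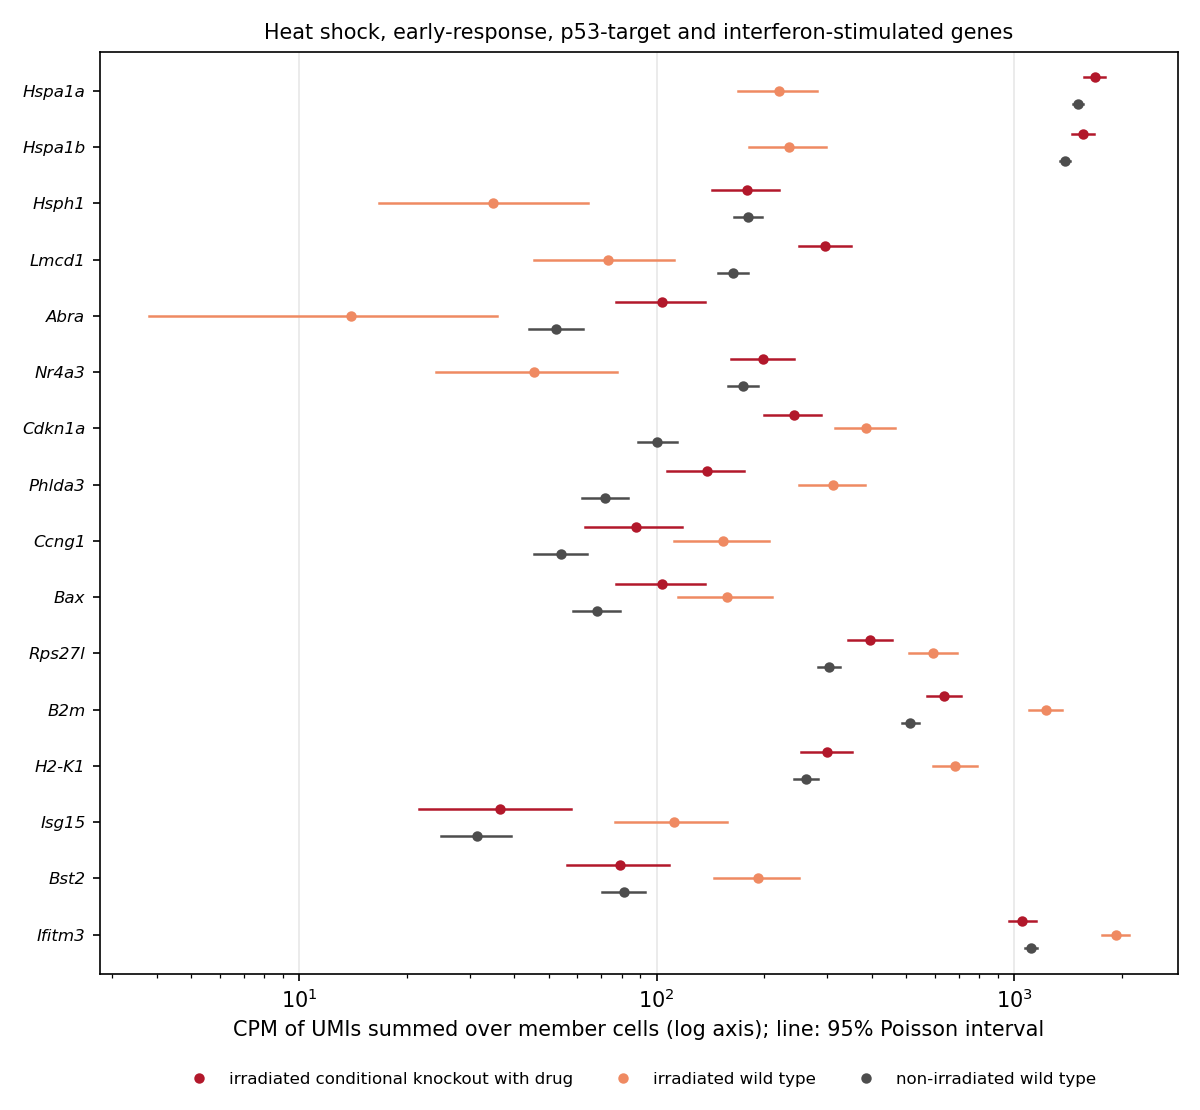
Levels of heat shock, early-response, p53-target and interferon-stimulated genes in smooth muscle and myofibroblast cells of the 3 libraries, as CPM of summed UMIs on a log axis. Points are the levels and lines 95% Poisson intervals. Hspa1a, Hspa1b and Hsph1 lie lowest in irradiated WT, while Cdkn1a, Phlda3, Ifitm3 and H2-K1 lie highest there.

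Most listed genes of stromal inflammation, which include adhesion receptors, were lower in KO with drug by CPM, but many from few cells. Of 18 measured genes, 2 (Cxcl12 and C4b) were higher by 1.5-fold or more and 11 lower in it than in non-irradiated WT (2.07% and 3.05% of all genes), with a median log2 ratio of −0.80. Against irradiated wild type, 0 of 11 were higher and 9 lower (9.36% and 5.95% of all genes). The list's summed level per cell did not follow the first of these counts, with medians of 1048 CPM in KO with drug, 2336 CPM in irradiated WT and 781 CPM in non-irradiated WT. Ccl7, Ccl11, Lif and Ptx3 had 0 UMIs in irradiated WT and were detected in both other libraries. Ccl2, the monocyte-attracting chemokine, stood at 8.13 CPM (4 UMIs in 4 cells) in KO with drug, 147 CPM (42 UMIs in 3 cells) in irradiated WT and 152 CPM (384 UMIs in 23 cells) in non-irradiated WT. C3, the central complement protein, stood at 36.6 CPM in KO with drug, 287 CPM in irradiated WT and 201 CPM in non-irradiated WT, and 1 cell held 89% of its UMIs in KO with drug. Cxcl14 stood at 4.06 CPM in KO with drug, 6.99 CPM in irradiated WT and 173 CPM in non-irradiated WT. It was therefore low in both irradiated libraries. C4b, another complement protein, was spread over more cells and stood at 398 CPM in KO with drug, 702 CPM in irradiated WT and 228 CPM in non-irradiated WT. Its medians per cell were 288 CPM in KO with drug, 697 CPM in irradiated WT and 128 CPM in non-irradiated WT.

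A single large cell of irradiated WT held most UMIs of several genes. It held 89% of the Vcam1 UMIs, 78% of the Timp1 UMIs and 80% of the Fn1 UMIs of the gate in irradiated WT. Fn1, which encodes fibronectin, stood at 380 CPM in KO with drug, 1307 CPM in irradiated WT and 301 CPM in non-irradiated WT. Without the largest cell of each library it stood at 394 CPM in KO with drug, 310 CPM in irradiated WT and 276 CPM in non-irradiated WT. Most of the Fn1 gap therefore went with that cell. Vcam1 and Timp1 in irradiated WT also fell without it, but they stayed above both other libraries. Vcam1, an adhesion receptor for leukocytes, stood at 65 CPM in KO with drug, 1136 CPM in irradiated WT and 106 CPM in non-irradiated WT. Without those cells it stood at 67.4 CPM in KO with drug, 151 CPM in irradiated WT and 103 CPM in non-irradiated WT. Timp1, the metalloprotease inhibitor, stood at 24.4 CPM in KO with drug, 699 CPM in irradiated WT and 160 CPM in non-irradiated WT. Without them it stood at 23.2 CPM in KO with drug, 180 CPM in irradiated WT and 139 CPM in non-irradiated WT.

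Most matrix genes lay above non-irradiated WT in both irradiated libraries, but few passed 1.5-fold. Of 25 measured genes of myofibroblast and fibrosis matrix, 21 lay above non-irradiated WT in KO with drug and 18 in irradiated WT, where 53.1% and 48.0% of all genes did so. At the 1.5-fold limit, 3 (Col8a1, Col15a1 and Tnc) were higher and 0 lower in KO with drug (2.07% and 3.05% of all genes). In irradiated WT 4 (Col1a1, Col5a2, Col8a1 and Fn1) were higher and 1 lower (5.04% and 6.96% of all genes), where the cell richest in each held 80% of the Fn1 UMIs and 54% of the Col8a1 UMIs. Col1a1, the main chain of collagen I, stood at 920 CPM in KO with drug, 1150 CPM in irradiated WT and 653 CPM in non-irradiated WT. Eln, which encodes elastin, stood at 2131 CPM in KO with drug (2004 to 2264), 2216 CPM in irradiated WT (2046 to 2395) and 1133 CPM in non-irradiated WT (1092 to 1175). In irradiated WT 1 cell held 39% of the Eln UMIs, and the medians per cell were 1271 CPM in KO with drug, 605 CPM in irradiated WT and 728 CPM in non-irradiated WT, so per cell only KO with drug stood above non-irradiated WT. Col5a2, a collagen V chain, stood at 173 CPM in KO with drug, 367 CPM in irradiated WT and 159 CPM in non-irradiated WT.

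Other growth factor and matrix-bound genes differed singly. Pdgfa, the ligand by which these cells signal to fibroblasts, stood at 187 CPM in KO with drug, 318 CPM in irradiated WT and 107 CPM in non-irradiated WT. Its receptor gene Pdgfra had 0 UMIs in KO with drug, 8 in irradiated WT and 177 in non-irradiated WT, where they lay in 40 cells. Against the limit of 3 UMIs that a count of 0 allows, Pdgfra was at least 11.5-fold lower in KO with drug than in non-irradiated WT. Most of the UMIs of non-irradiated WT came from its 37 cells with fibroblast markers, a set defined in part by Pdgfra, at 386 CPM there. In cells with no fibroblast, pericyte, Hhip or haemoglobin markers Pdgfra stood at 0 CPM in KO with drug, 10.2 CPM in irradiated WT and 5.59 CPM in non-irradiated WT. Tgfb3, a transforming growth factor, stood at 167 CPM in KO with drug, 90.9 CPM in irradiated WT and 247 CPM in non-irradiated WT. Inhba, the activin A subunit, was at 152 CPM in KO with drug, 59.4 CPM in irradiated WT and 124 CPM in non-irradiated WT. Of 24 measured genes of the TGF-beta pathway, 1 was higher by 1.5-fold or more and 2 lower in irradiated than in non-irradiated WT (5.04% and 6.96% of all genes).

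Ltbp4, which anchors latent TGF-beta to elastic fibres, stood at 583 CPM in KO with drug, 294 CPM in irradiated WT and 544 CPM in non-irradiated WT. Secreted proteins named by the rule for irradiated against non-irradiated wild type included Ogn (osteoglycin), Nov (a CCN-family matrix protein) and Bmp3. All 3 were lowest in irradiated WT and near each other in the other libraries. Ogn stood at 534 CPM in KO with drug, 196 CPM in irradiated WT and 601 CPM in non-irradiated WT. Nov stood at 721 CPM in KO with drug, 210 CPM in irradiated WT and 617 CPM in non-irradiated WT. Bmp3 was at 87.3 CPM in KO with drug, 21 CPM in irradiated WT and 88.8 CPM in non-irradiated WT. Sost, an antagonist of Wnt signalling known best from bone, stood at 189 CPM in KO with drug, 17.5 CPM in irradiated WT and 145 CPM in non-irradiated WT, and all 5 of its UMIs in irradiated WT came from 1 cell. In each of these genes irradiated WT stood apart. At the 2-fold limit, 77 of 9402 genes (0.819%) were higher and 120 (1.28%) lower in irradiated than in non-irradiated WT.

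Genes higher in irradiated than in non-irradiated wild-type smooth muscle, apart from the lists above, included Cd200, Sncg, Ildr2 and Dclk1. Cd200, a surface ligand that restrains myeloid cells, stood at 138 CPM in KO with drug, 266 CPM in irradiated WT and 65.9 CPM in non-irradiated WT. Sncg, which encodes gamma-synuclein, stood at 280 CPM in KO with drug, 440 CPM in irradiated WT and 141 CPM in non-irradiated WT. Both genes were highest in irradiated WT, as were the next 2. Dclk1, a microtubule-associated kinase, stood at 60.9 CPM in KO with drug, 164 CPM in irradiated WT and 50.9 CPM in non-irradiated WT. The log2 ratio of Dclk1 for irradiated against non-irradiated wild type was 1.38, and 0.63 with female-type cells only. Ildr2 was at 48.8 CPM in KO with drug, 101 CPM in irradiated WT and 15.4 CPM in non-irradiated WT. For Cd200, Sncg and Ildr2 KO with drug lay between the wild-type libraries. Clu, which encodes the chaperone clusterin, was high in both irradiated libraries, at 938 CPM in KO with drug, 1073 CPM in irradiated WT and 421 CPM in non-irradiated WT.

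Between KO with drug and non-irradiated WT, which have the larger gates, 17 of 9559 genes (0.178%) were higher and 70 (0.732%) lower in KO with drug at the 2-fold limit. The lower ones included genes whose irradiated wild-type level lay near the non-irradiated one. Gabra3, a subunit of the GABA-A receptor, stood at 12.2 CPM (6 UMIs) in KO with drug, 80.4 CPM (23 UMIs) in irradiated WT and 114 CPM (289 UMIs) in non-irradiated WT. Its ratio to non-irradiated WT was 0.107 (0.0389 to 0.235). In fibroblast-gated cells Gabra3 showed the same low library, at 7.67 CPM in KO with drug, 36.7 CPM in irradiated WT and 42.2 CPM in non-irradiated WT. For 2 genes no UMI was found in KO with drug. Vwc2, a secreted antagonist of bone morphogenetic proteins, had 0 UMIs in the 62 cells of KO with drug, 12 in irradiated WT and 139 in non-irradiated WT. Tmem215 had 0 UMIs in KO with drug, 9 UMIs in irradiated WT and 125 UMIs in non-irradiated WT. Against the limit of 3 UMIs, Vwc2 was at least 9.0-fold and Tmem215 at least 8.10-fold lower in KO with drug than in non-irradiated WT.

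Scarb2, a lysosomal membrane receptor, and Stbd1, a glycogen-binding protein, were also low in KO with drug. Scarb2 stood at 91.4 CPM in KO with drug, 196 CPM in irradiated WT and 229 CPM in non-irradiated WT. Stbd1 stood at 56.9 CPM in KO with drug, 112 CPM in irradiated WT and 205 CPM in non-irradiated WT. Scarb2 and Syne2 set KO with drug apart from both wild-type libraries, while Stbd1 and Pdzd2 were highest in non-irradiated WT. Syne2, which links the nucleus to the cytoskeleton, stood at 85.3 CPM in KO with drug, 206 CPM in irradiated WT and 191 CPM in non-irradiated WT. Pdzd2 was at 87.3 CPM in KO with drug, 94.4 CPM in irradiated WT and 251 CPM in non-irradiated WT. Its log2 ratio for KO with drug against non-irradiated wild type was −1.34, and −0.27 in cells with none of the other marker sets. Among the genes higher in KO with drug than in non-irradiated WT, Fam46a stood at 197 CPM in KO with drug, 66.4 CPM in irradiated WT and 77.7 CPM in non-irradiated WT. Eif3j2 was at 40.6 CPM in KO with drug, 6.99 CPM in irradiated WT and 5.13 CPM in non-irradiated WT. Mylk4, described above, was another.

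**Figure D5:**
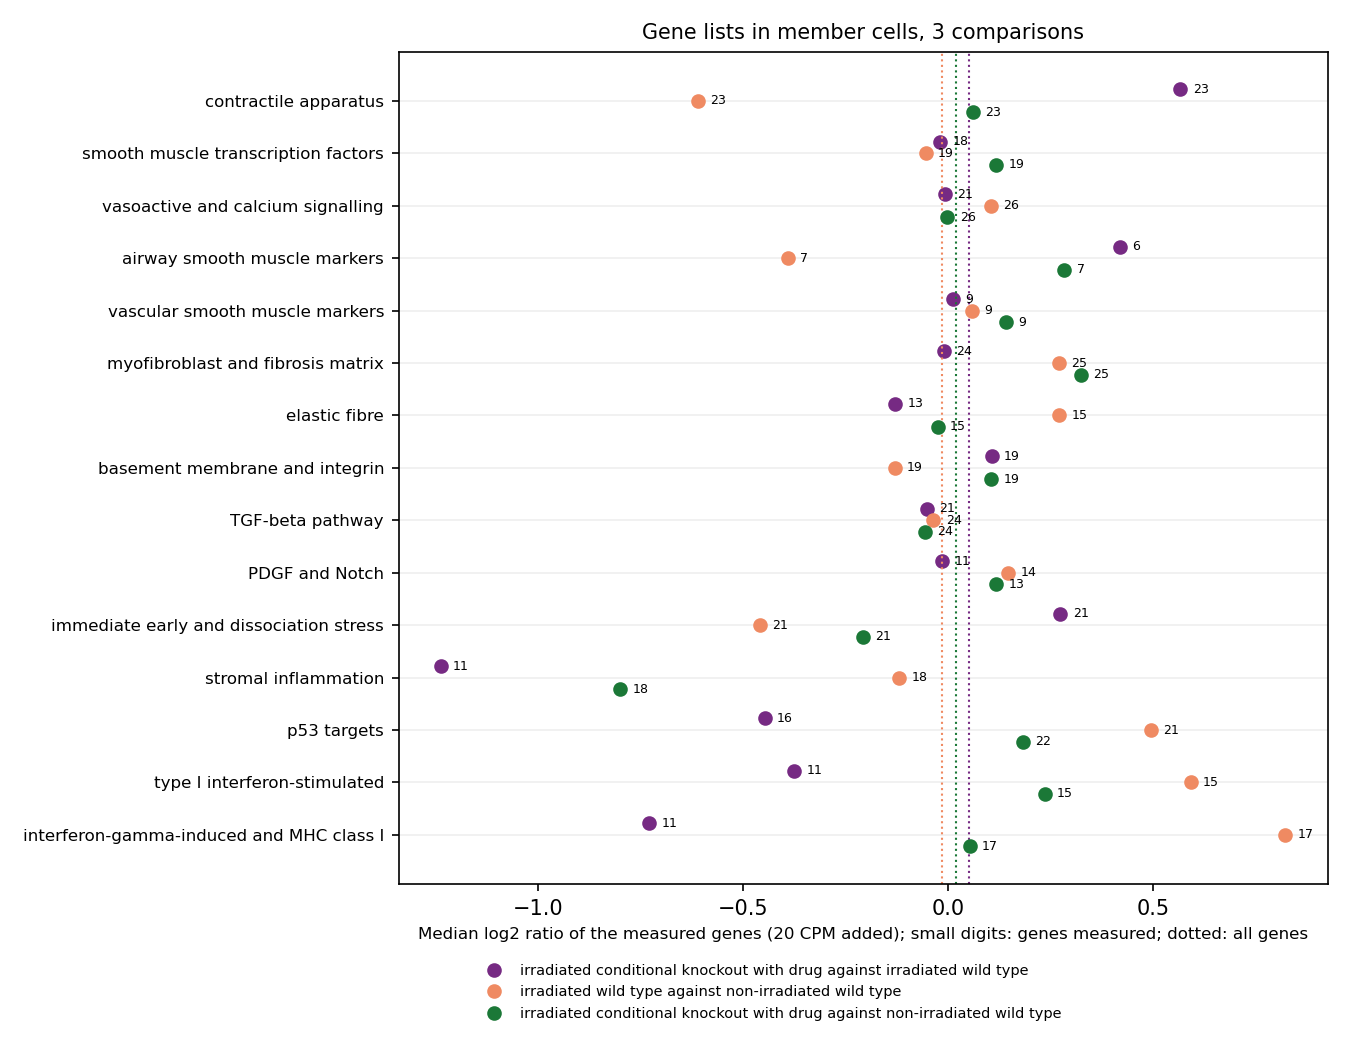
Median log2 ratio of the measured genes of each list in smooth muscle and myofibroblast cells, with 20 CPM added, for the 3 comparisons. Points are medians, small digits give the number of genes measured, and dotted lines mark the median over all genes. Contractile genes lie at 0.57 and −0.61 in the 2 comparisons that share the irradiated wild-type cells and at 0.06 in the other, and the medians of the p53 and interferon lists have the opposite sign in those 2 comparisons.

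The gate held more than 1 kind of cell in every library. Cells with at least 3 UMIs of Hhip, a hedgehog-binding protein that marks alveolar myofibroblasts and part of airway muscle, numbered 4 of 62 in KO with drug, 2 of 29 in irradiated WT and 23 of 345 in non-irradiated WT. Among lymphocytes that Hhip count was met by 0.105% of cells in KO with drug, 0.0883% in irradiated WT and 0.545% in non-irradiated WT. The Hhip cells carried less Acta2 than the whole gate and more Aspn. Their Acta2 level was 1085 CPM in KO with drug, 4133 CPM in irradiated WT and 4364 CPM in non-irradiated WT. Their level of Aspn, an extracellular proteoglycan of myofibroblasts, was 1692 CPM in KO with drug, 943 CPM in irradiated WT and 1312 CPM in non-irradiated WT. Cells with fibroblast markers numbered 4 in KO with drug (6.45% of the gate), 2 in irradiated WT (6.90%) and 37 in non-irradiated WT (10.7%). Among lymphocytes the same fibroblast set was met by 0.817% of cells in KO with drug, 0.706% in irradiated WT and 6.04% in non-irradiated WT. The part of free RNA in these counts was not tested. Cells with pericyte markers numbered 5 in KO with drug, 5 in irradiated WT and 35 in non-irradiated WT. Among lymphocytes the pericyte set was met by 0.0791% of cells in KO with drug, 0% in irradiated WT and 0.792% in non-irradiated WT. Gated cells that fell in more than 1 set numbered 2 in KO with drug, 1 in irradiated WT and 10 in non-irradiated WT. These sets were defined after the data had been seen. Cells with none of the marker sets numbered 51 (82.3%) in KO with drug, 21 (72.4%) in irradiated WT and 259 (75.1%) in non-irradiated WT. After each cell was thinned to 1900 UMIs, which left out the shallower cells and kept 62 in KO with drug, 29 in irradiated WT and 324 in non-irradiated WT, these shares were 93.5% in KO with drug, 86.2% in irradiated WT and 87.3% in non-irradiated WT. Within the unthinned cells with none of the marker sets Cnn1 stood at 1803 CPM in KO with drug, 558 CPM in irradiated WT and 1616 CPM in non-irradiated WT. Actc1 was at 3485 CPM in KO with drug, 1147 CPM in irradiated WT and 3144 CPM in non-irradiated WT. The median log2 ratio of contractile genes there was 0.59 for KO with drug against irradiated wild type and −0.62 for irradiated against non-irradiated wild type. The contractile difference was thus as large in cells without fibroblast, pericyte or Hhip markers as in the whole gate.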

How the data were processed

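The authors deposited filtered UMI counts per gene and barcode for 3 libraries. The 10x headers record software version 3.1.0 without its name, and the build was mm10 per the submitters' processing notes; the sources used here do not name an aligner or annotation. Gene positions were read from GENCODE vM21. UMIs of features with the same symbol were summed, leaving 31018 symbols of 31054 features. Library totals were 76667310 UMIs (knockout with drug), 45800421 UMIs (irradiated wild type) and 85984536 UMIs (non-irradiated).

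Counts were summed over gated cells and expressed as CPM, with exact Poisson intervals at 95% confidence. Ratio intervals are exact conditional binomial. A gene counted as measured with at least 20 UMIs over both libraries, and was called at 2-fold (1.5-fold within lists) with 20 CPM added. Rule genes were left out of list counts. Genes named were the defining markers, up to 10 called genes per direction and comparison, and the genes of a list with the widest ratios. A gene that the rule named is not reported here. For called genes the rule asked for UMIs in at least 20% of the cells of the higher library, no cell with over 50% of the UMIs, and a level no lower than in the other cells. Vcl, Myl9, Myl6, Srf, Myocd, Itpr1 and near-equal genes such as Cald1 were added for their role, after values were seen. Doublets were marked with Scrublet (scanpy 1.11.5) and kept: 10 gated cells of 1020 marked in the knockout library with drug, 1 of 401 in irradiated wild type and 42 of 1918 in non-irradiated wild type. Thinning, cell averaging, other gates and other thresholds were tried as alternatives. The computation was tested on simulated data. The gate and the gene lists were chosen with earlier results of these data known.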

Additional observations from a re-analysis of the deposited data

How the results depend on the processing

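No paired analysis was possible because each group had 1 library, and leaving out a replicate was not possible for the same reason. The genes named by size of ratio (10 per direction in the comparisons with irradiated wild type, 8 per direction in the other) kept their direction under the 12 alternatives tried for genes and lists, 1 of which (cells with none of the 4 other marker sets) was chosen after the data were seen. Fewer stayed past 2-fold under all of them: 10 of 10 higher and 3 of 10 lower (knockout with drug against irradiated wild type), 7 of 10 and 8 of 10 (irradiated against non-irradiated wild type), and 2 of 8 and 3 of 8 (knockout with drug against non-irradiated wild type). Of the gene ratios recomputed, 12321 stayed within a tolerance set by the counting interval of the gene, and at least 0.2 log2 units. That tolerance is wide for genes with few UMIs. A further 388 moved by more, and 11 changed sign from a main ratio of at least 2-fold. Sign changes of smaller ratios are not among the 11. The share of gated cells was 1.18%, 0.930% and 4.83% with no Myh11 minimum (knockout with drug, irradiated wild type, non-irradiated wild type), 0.336%, 0.252% and 1.75% with at most 5% mitochondrial UMIs, and 2.88%, 2.89% and 7.49% of cells passing the negative gates. The non-irradiated share was also 3.15% with at least 1000 genes, 3.15% among female-type cells and 3.47% after thinning to 1000 UMIs.

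Counts of genes past 2-fold depended most on the CPM added. With 5 CPM they were 252 higher and 136 lower (knockout with drug against irradiated wild type), 287 and 616 (irradiated against non-irradiated wild type), and 105 and 331 (knockout with drug against non-irradiated wild type). With 50 CPM they were 32 and 26, 34 and 43, and 4 and 30. For knockout with drug against irradiated wild type, at least 50 UMIs gave 55 and 27, all genes with a UMI gave 120 lower, female-type cells gave 161 higher, and cells with none of the other marker sets gave 163 higher. Female-type cells gave 182 lower for irradiated against non-irradiated wild type, and cells with none of the other sets gave 29 higher and 30 lower for knockout with drug against non-irradiated wild type. Averaging over cells gave contractile medians of 0.27 (7 higher) and −0.40 (7 lower), without the largest cell 7 were lower, and against non-irradiated wild type 1 contractile gene was higher in the knockout library with drug under averaging and with 5 CPM.

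Only ratios of at least 2-fold in the main setting were followed for a change of sign. Those that changed sign for knockout with drug against irradiated wild type were Cxcl1 (0.71 averaged over cells, 0.30 without the largest cell), Fn1 (0.32 without the largest cell), Fbln1 (0.36 with Acta2 at least 5 and Myh11 at least 2) and Flt1 (−0.044 without doublet-marked cells). For irradiated against non-irradiated wild type they were Hhip (−0.31 averaged over cells, −0.51 with the stricter gate, −0.12 in cells with none of the other sets), Sfrp2 (−0.42 without the largest cell) and Saa3 (0.071 in cells with none of the other sets). For knockout with drug against non-irradiated wild type it was Mmp2 (0.15 in cells with none of the other sets). Each rests on few cells, and the cause was not tested. With 29 cells, genes below about 20 UMIs could not be compared.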

Other observations

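A dTomato transcript was among the features counted, and the labels say nothing of a reporter. In the gated cells it had 13 UMIs in the knockout library with drug, 19 in the irradiated wild-type library and 151 in the non-irradiated wild-type library.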
